A study of Mus musculus with 6 samples.

Results

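p53, encoded by Trp53 in the mouse, and 9 genes of its direct response (Mdm2, Cdkn1a, Aen, Ccng1, Phlda3, Sesn2, Zmat3, Trp53inp1 and Perp) were examined in leukaemic bone marrow with floxed or wildtype Gfi1b. The members were all probe sets whose deposited gene symbol names one of these 10 genes, which gave 10 of the 22662 gene symbols and 26 of the 45101 probe sets of the array, and no member probe set names a further gene. RNA came from total bone marrow cells of leukaemic mice that carry NUP98/HOXD13, a fusion of a nucleoporin gene and a homeobox gene used as a mouse model of myelodysplastic syndrome and acute myeloid leukaemia. In the group labelled KO, 3 samples have the genotype Gfi1bfl/fl MxCretg NUP98/HOXD13, in which the alleles of the transcriptional repressor Gfi1b are floxed. In the wildtype group, 3 samples have the genotype Gfi1b wt MxCretg NUP98/HOXD13, so all samples share Mx-Cre, an interferon-inducible recombinase, and the fusion transgene. The labels give no age, no induction of Cre, no promoter of the transgene and no statement that the samples of a group are separate mice, so the p-values describe only how these 6 samples vary, which may be technical.

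p53 is a transcription factor that is held at a low level by the ubiquitin ligase MDM2 and is stabilised by DNA damage, oncogene activity and ribosomal stress. It binds response elements built from a pair of decamers and activates genes of cell cycle arrest, DNA repair, metabolic restraint and cell death, and MDM2 itself, which closes a feedback loop. In blood-forming marrow this response limits stem and progenitor cells after damage, and its loss is a recurrent event in advanced myelodysplastic syndrome and acute myeloid leukaemia. Because p53 is controlled mainly through the stability and modification of its protein, the level of Trp53 RNA and the activity of the protein need not move together.

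The sequences before the transcription starts show where the decamer on which p53 binding rests is found in these genes. RefSeq promoter sequences (GRCm38.p6) matched 7 of the 10 genes, namely Trp53, Mdm2, Cdkn1a, Aen, Ccng1, Phlda3 and Sesn2. The 250 bases before each annotated start were searched on both strands for an exact match to the p53 decamer consensus, which reads alike on either strand, and overlapping matches were counted. A match was found in 5 of these 7 genes, against 8.2% of the 27025 genes whose windows were counted. Not every chromosome was included in this count. The windows of the 5 genes with a match are printed 5′ to 3′ on the strand of the gene, with the matches in capitals. Cdkn1a and Aen each have 2 annotated starts, and the window printed is the one with the match. A match is a description of these letters and not a measured binding site.
Trp53, chr11:69580109-69580358, plus strand: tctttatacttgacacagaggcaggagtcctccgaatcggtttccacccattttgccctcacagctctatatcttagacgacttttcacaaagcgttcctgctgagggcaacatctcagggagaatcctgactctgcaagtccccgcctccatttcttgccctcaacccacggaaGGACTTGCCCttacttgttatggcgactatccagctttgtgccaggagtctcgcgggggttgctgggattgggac
Mdm2, chr10:117710759-117711008, minus strand: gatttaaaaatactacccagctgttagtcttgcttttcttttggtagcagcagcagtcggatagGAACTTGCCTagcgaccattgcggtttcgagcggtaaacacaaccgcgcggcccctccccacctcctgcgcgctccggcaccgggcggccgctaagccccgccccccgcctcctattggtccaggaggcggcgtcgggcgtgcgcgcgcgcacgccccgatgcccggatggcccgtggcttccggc
Cdkn1a, chr17:29090729-29090978, plus strand: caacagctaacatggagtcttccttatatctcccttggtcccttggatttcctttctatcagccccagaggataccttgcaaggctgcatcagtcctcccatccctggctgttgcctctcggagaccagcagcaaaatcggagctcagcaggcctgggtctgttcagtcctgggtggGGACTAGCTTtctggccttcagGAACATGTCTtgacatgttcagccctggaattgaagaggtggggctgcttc
Aen, chr7:78895808-78896057, plus strand: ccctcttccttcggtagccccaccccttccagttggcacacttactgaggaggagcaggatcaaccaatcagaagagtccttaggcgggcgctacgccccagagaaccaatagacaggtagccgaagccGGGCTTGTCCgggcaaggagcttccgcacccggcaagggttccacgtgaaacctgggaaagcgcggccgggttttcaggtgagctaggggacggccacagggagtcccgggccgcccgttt
Ccng1, chr11:40755287-40755536, minus strand: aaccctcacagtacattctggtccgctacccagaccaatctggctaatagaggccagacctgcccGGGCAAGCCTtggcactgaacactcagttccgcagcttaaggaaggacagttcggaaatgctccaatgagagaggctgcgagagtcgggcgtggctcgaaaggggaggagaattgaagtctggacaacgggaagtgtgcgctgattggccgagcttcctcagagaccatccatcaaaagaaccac
The Cdkn1a window is the one among these with 2 exact decamers, which begin 73 and 51 bases before the upstream of its 2 annotated starts. The window of the downstream Cdkn1a start, chr17:29093519-29093768, held 0 matches. In Trp53 the match begins 75 bases before the start, in Aen 121, in Ccng1 185 and in Mdm2 186.

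Expression values are RMA values on the log2 scale, so a difference of 1 is a doubling, and levels are not compared between probe sets. The array medians lay between 3.73 and 3.86, and a probe set with a group mean under 3.86 is called dim, since differences there are compressed. Values of single samples are given in the order of replicates 1, 2 and 3 of each group. Gfi1b, the gene the labels target, read 10.88, 11.63 and 11.67 in the samples labelled KO and 5.83, 6.37 and 4.38 in wildtype. It was thus higher in every sample labelled KO (log2 difference 5.86, SE 0.51, limma adjusted p = 0.00714), and an exact two-sided permutation test gave p = 0.1, the smallest value that 3 against 3 samples allow. The labels do not say which exons are floxed, so a probe set outside the deleted part would check nothing, and all directions below refer to KO as the labels use the word. The marrow differed in its cell markers. Markers are said to rise or fall here at an adjusted p under 0.05 in limma. Of 7 measured neutrophil markers 4 fell and 0 rose, and by their means all 7 were lower in KO. The mean level of this list lay between 4.08 and 8.59 in the samples labelled KO and between 12.56 and 14.13 in wildtype. Of 5 monocyte markers 4 fell and 0 rose, and by their means all 5 were lower. The list mean lay between 4.08 and 4.86 in KO and between 7.19 and 9.35 in wildtype. Of 8 erythroid markers 2 rose and 0 fell, and by their means 7 were higher and 1 lower. Their list mean lay between 7.73 and 9.96 in KO and between 6.50 and 8.58 in wildtype. The mean of 5 T cell markers reached 7.78 in wildtype replicate 2, while the other 5 samples lay between 4.41 and 5.12. Of 4 measured B cell markers 1 fell, and Ms4a1 and Pax5 were dim in both groups. The part of these cell markers in the results below was not tested.

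Of the 26 member probe sets, 2 passed an adjusted p under 0.05 in limma, and both were higher in the samples labelled KO. They were a probe set of Trp53 itself and a probe set of Aen. Among all 45037 probe sets that are not array controls, 2.93% passed (1319), made up of 1.53% that were higher and 1.40% that were lower in KO. The 2 members are 7.69% of 26, and no member passed as lower. At an unadjusted p under 0.05 there were 8 member probe sets (30.8%) and 16.9% of all probe sets. The groups did not overlap in 7 member probe sets (26.9%), against 22.8% of all probe sets. Of these, 5 were higher in KO (12.5% of all probe sets), 4 of them probe sets of Trp53, and 2 were lower (10.2% of all probe sets), both of Trp53inp1. By their means 17 members were higher and 9 lower in KO, with a median log2 difference of 0.22 over the members and 0.02 over all probe sets tested. The members' median was 0.13 without KO replicate 2 and 0.12 without wildtype replicate 2. Of the 26, 7 were dim in both groups and 2 in 1 group. In whole marrow, fewer cells of a type and less RNA per cell cannot be told apart.

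**Figure D1:**
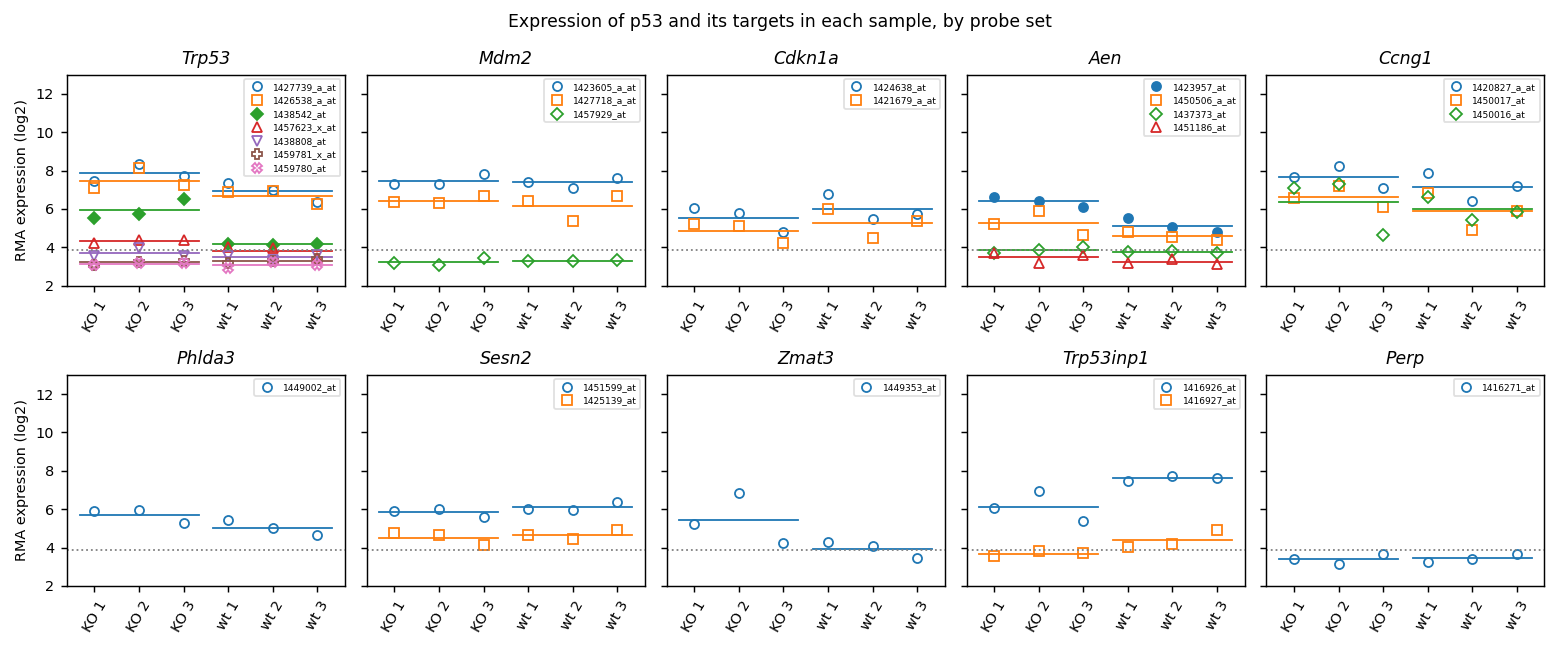
RMA expression (log2, vertical axis) of every member probe set in each of the 6 samples (KO 1 to 3 and wt, wildtype, 1 to 3), with 1 panel per gene, horizontal lines for group means, filled symbols for the 2 probe sets past the adjusted p of 0.05 and a dotted line at the highest array median. Trp53 probe set 1438542_at and Aen probe set 1423957_at lie higher in all 3 samples labelled KO than in any wildtype sample, Trp53inp1 lies lower, and Perp lies under the dotted line throughout.

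Trp53 read higher in the samples labelled KO at each of its 4 brighter probe sets, and 1 of these passed the test. Probe set 1438542_at read 5.51, 5.76 and 6.50 in KO, and 4.17, 4.13 and 4.16 in wildtype. The wildtype samples were nearly equal and all 3 KO samples lay above them. It rose 3.40-fold (log2 difference 1.77, SE 0.25, limma adjusted p = 0.0232). Without KO replicate 2 the adjusted p was 0.1, and without wildtype replicate 1 or 3 it was 0.0687 or 0.0656, with a log2 difference between 1.48 and 1.97 over the 6 samples left out in turn.

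The 2 brightest Trp53 probe sets showed a smaller difference. Probe set 1427739_a_at read 7.46, 8.35 and 7.72 in KO and 7.37, 6.99 and 6.37 in wildtype. Probe set 1426538_a_at read 7.07, 8.11 and 7.22 in KO and 6.91, 6.91 and 6.23 in wildtype. In both, KO replicate 2 was the highest sample and wildtype replicate 3 the lowest, and a narrow gap separated the lowest KO sample, replicate 1, from the highest wildtype sample. Their log2 differences were 0.94 (95% confidence interval 0.17 to 1.70, limma adjusted p = 0.202) and 0.79 (0.02 to 1.55, adjusted p = 0.284). Probe set 1457623_x_at, dim in wildtype, read 4.32 ± 0.10 against 3.81 ± 0.32 (SD, n = 3, limma adjusted p = 0.21). The other 3 Trp53 probe sets were dim in both groups, with differences between -0.09 and 0.20. The deposited table does not tell which part of the transcript a probe set reads, and the difference between the probe sets of Trp53 in the size of the change was not tested.

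Mdm2, the ubiquitin ligase that targets p53 for degradation and is itself a p53 target, did not pass the test. Its brightest probe set, 1423605_a_at, read 7.30, 7.30 and 7.79 in KO and 7.42, 7.10 and 7.62 in wildtype. The groups overlapped almost completely, and the interval of the log2 difference reached from -0.39 to 0.56 around 0.09 (limma adjusted p = 0.873). Probe set 1427718_a_at read 6.35, 6.30 and 6.66 in KO and 6.42, 5.38 and 6.67 in wildtype, where wildtype replicate 2 stood 1.04 under the next lowest wildtype sample. Its interval of -0.52 to 1.08 was wider. The third probe set was dim in both groups.

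Cdkn1a encodes p21, the cyclin-dependent kinase inhibitor through which p53 arrests the cell cycle. Probe set 1424638_at read 6.04, 5.79 and 4.79 in KO and 6.79, 5.45 and 5.74 in wildtype. Probe set 1421679_a_at read 5.22, 5.12 and 4.22 in KO and 5.98, 4.51 and 5.37 in wildtype. Both probe sets placed wildtype replicate 1 highest, and the groups overlapped. The log2 differences were -0.45 (95% confidence interval -1.52 to 0.61) and -0.43 (-1.45 to 0.58), each with a limma adjusted p of 0.679. Single samples of either group moved both differences. They were -0.05 and -0.08 without wildtype replicate 1, and -0.08 and -0.12 without KO replicate 3. Without wildtype replicate 2 they were -0.72 and -0.82, and without KO replicate 1 they were -0.70 and -0.61. Both confidence intervals reach beyond a fall of 1 on the log2 scale, so the data do not show that Cdkn1a was alike in the groups.

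Ccng1, cyclin G1, is a p53 target that recruits protein phosphatase 2A and acts on MDM2. Probe set 1420827_a_at read 7.66, 8.24 and 7.10 in KO and 7.87, 6.40 and 7.18 in wildtype. Probe set 1450017_at read 6.56, 7.20 and 6.11 against 6.83, 4.88 and 5.91, and probe set 1450016_at read 7.07, 7.29 and 4.66 against 6.61, 5.43 and 5.86. KO replicate 2 was the highest of the 6 samples in all 3 probe sets, and the groups overlapped in each. The log2 differences were 0.52, 0.75 and 0.37, and limma adjusted p-values lay between 0.533 and 0.847. Their 95% confidence intervals were -0.51 to 1.54, -0.47 to 1.98 and -1.33 to 2.08. Without wildtype replicate 2 the differences of 1420827_a_at and 1450017_at were 0.14 and 0.26, and without wildtype replicate 1 they were 0.88 and 1.23. The difference of 1450016_at was -0.10 without KO replicate 2 and 1.21 without KO replicate 3.

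Of the genes that act in cell death and survival, Aen rose at 1 probe set. Aen, a nuclease that p53 induces and that enhances apoptosis, read 6.64, 6.42 and 6.12 in KO and 5.55, 5.05 and 4.78 in wildtype at probe set 1423957_at. All 3 KO samples lay above all wildtype samples, and the rise was 2.41-fold (log2 difference 1.27, SE 0.23, limma adjusted p = 0.0431). Probe set 1450506_a_at read 5.20, 5.90 and 4.63 against 4.82, 4.52 and 4.36, so that KO replicate 3 fell among the wildtype samples. Its difference of 0.68 did not pass (limma adjusted p = 0.352). The other 2 probe sets of Aen were dim in both groups. The call of 1423957_at is close to the threshold. Its adjusted p lay between 0.0693 and 0.158 when any KO sample or wildtype replicate 2 or 3 was left out, was 0.0461 without wildtype replicate 1 and was 0.0632 with array weights, while the log2 difference stayed between 1.10 and 1.48 with a sample left out.

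Phlda3, a protein that p53 induces and that restrains the survival kinase AKT, read 5.92, 5.94 and 5.26 in KO and 5.42, 5.03 and 4.67 in wildtype. KO replicate 3 lay below wildtype replicate 1, and the log2 difference of 0.67 (95% confidence interval 0.04 to 1.29) did not pass (limma adjusted p = 0.267). Perp, a membrane protein that takes part in p53-dependent death and in desmosomes, read between 3.16 and 3.66 in all 6 samples. It was dim in both groups, so this probe set cannot show a difference.

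Trp53inp1 encodes a stress-induced protein that forms part of a positive loop with p53 and also acts in autophagy. Probe set 1416926_at read 6.05, 6.96 and 5.39 in KO and 7.49, 7.74 and 7.65 in wildtype. It was the member with the largest downward difference, 2.80-fold, and every KO sample lay below every wildtype sample. The log2 difference of -1.49 (95% confidence interval -2.37 to -0.60) did not pass over all probe sets (limma adjusted p = 0.098). Probe set 1416927_at read 3.54, 3.82 and 3.70 in KO, where it was dim, and 4.03, 4.18 and 4.90 in wildtype. Its difference of -0.68 had the same sign (limma adjusted p = 0.213), and the groups did not overlap there either.

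Zmat3, an RNA-binding zinc finger protein, showed the widest spread among the members in KO after Ccng1 probe set 1450016_at. It read 5.24, 6.85 and 4.24 in KO and 4.29, 4.09 and 3.44 in wildtype. KO replicate 2 stood far above the rest and KO replicate 3 lay within the wildtype range. The log2 difference of 1.50 had an interval of -0.01 to 3.01 (limma adjusted p = 0.299), and it was 0.79 without KO replicate 2 and 2.10 without KO replicate 3.

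Sesn2, a sestrin that lowers mTORC1 activity and is also induced by other stress regulators, read 5.93, 6.03 and 5.59 in KO and 6.02, 5.94 and 6.38 in wildtype at probe set 1451599_at. At probe set 1425139_at it read 4.75, 4.68 and 4.15 against 4.65, 4.45 and 4.90. The groups overlapped in both. The log2 differences were -0.26 (95% confidence interval -0.69 to 0.16) and -0.14 (-0.63 to 0.35), which are narrow intervals beside those of Cdkn1a and Ccng1.

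**Figure D2:**
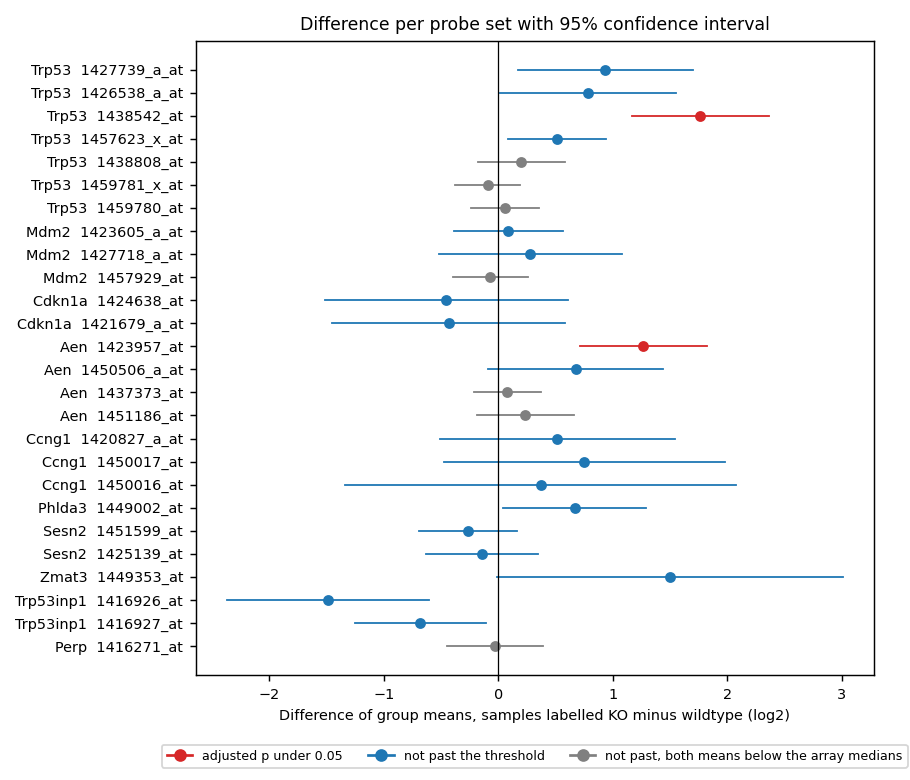
Log2 difference of group means, samples labelled KO minus wildtype (horizontal axis), for the 26 member probe sets, with points for the estimates and bars for the 95% confidence intervals of the limma fit. The Trp53 probe set at 1.77 and the Aen probe set at 1.27 are the 2 past the adjusted p of 0.05, and Trp53inp1 at -1.49 lies farthest to the left.

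The members varied within the KO group in a shared way. Over the 19 member probe sets that were not dim in both groups, KO replicate 3 was the lowest KO sample in 12 and KO replicate 2 the highest in 12. Over the 23412 probe sets of the array that were not dim in both groups, KO replicate 3 was lowest in 31.3% and KO replicate 2 highest in 27%, against 63.2% for each among the members. Probe sets of 1 gene share their transcript, so these 19 are fewer than 19 separate genes. The low position of KO replicate 3 held for the brighter probe sets of Cdkn1a, Aen, Ccng1, Phlda3, Sesn2 and Zmat3 and for Trp53inp1 probe set 1416926_at. It did not hold for Trp53 or Mdm2, and KO replicate 3 was the highest KO sample at Trp53 probe set 1438542_at and at both brighter Mdm2 probe sets. In wildtype, replicate 1 was the highest sample in 12 of the 19 (63.2%, against 36.8% of the array) and replicate 2 the lowest in 10 (52.6%, against 43.9%).

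Cell cycle genes and the markers of several cell types also had their extreme KO value at replicate 3. The mean of 19 cell cycle genes that p53 represses through p21 and the DREAM complex was 7.89, 7.98 and 6.11 in KO and 7.58, 7.94 and 7.52 in wildtype. The mean of the erythroid markers was 9.96, 9.45 and 7.73 in KO and 6.99, 8.58 and 6.50 in wildtype. KO replicate 3 was thus the lowest KO sample for these lists too, while the highest wildtype sample was replicate 2 for both, unlike the members. In KO replicates 1, 2 and 3 the mean of the neutrophil markers was 8.59, 7.13 and 4.08, that of the 5 megakaryocyte markers 6.68, 5.58 and 5.07, that of the monocyte markers 4.86, 4.31 and 4.08 and that of 5 markers of stroma and endothelium 4.83, 4.69 and 4.66. Of the 8 marker lists 5 were thus lowest at KO replicate 3, while the mean of 3 stem and progenitor markers was highest there (5.68, 5.82 and 6.27) and the T cell and B cell markers were lowest at KO replicate 2. The stem and progenitor mean spread more widely in wildtype, with 8.29, 5.49 and 5.79 in replicates 1, 2 and 3. The part of these lists in the spread of the p53 targets was not tested.

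**Figure D3:**
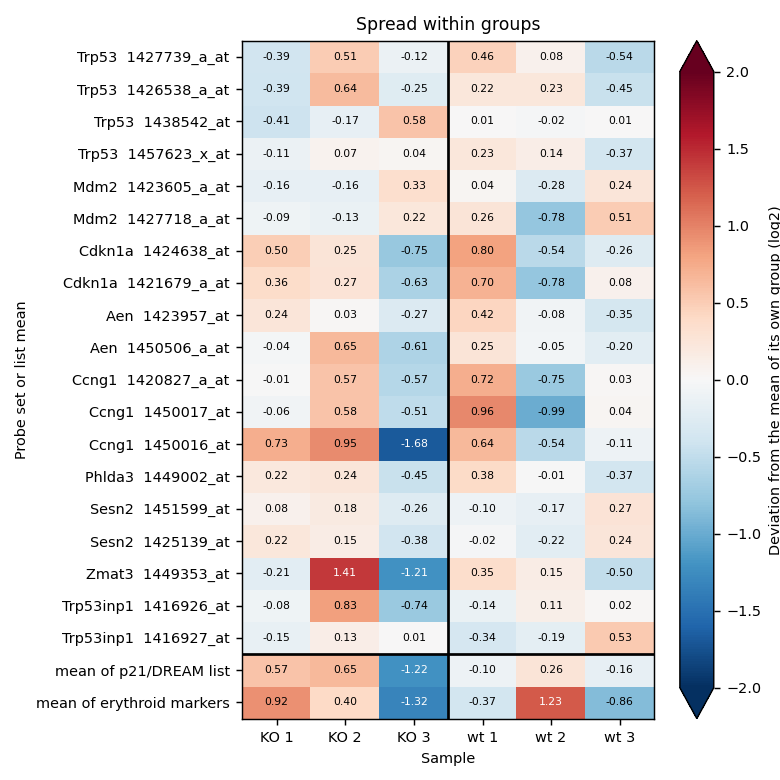
Deviation of each sample (columns: KO 1 to 3 and wt, wildtype, 1 to 3) from the mean of its own group on the log2 scale, for the 19 member probe sets that are not dim in both groups (rows) and, under the line, for the means of the cell cycle list and of the erythroid markers. Most target rows are lowest at KO replicate 3, whereas the Mdm2 rows and Trp53 probe set 1438542_at are highest there among the KO samples.

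Further genes of the pathway were read from lists chosen with earlier results of these data known. Each gene was represented by 1 probe set, the one with the highest mean. Of 20577 genes represented in this way 3.92% passed the same test, and their median log2 difference was 0.01. Of 18 measured regulators of p53, which include the kinases and acetyltransferases that act on the protein, 0 passed in limma (median 0.04). Sirt1, a deacetylase that acts on p53, read 5.62, 5.95 and 5.78 in KO and 5.16, 5.14 and 5.14 in wildtype. The groups were well separated, and the log2 difference of 0.63 narrowly missed the threshold (limma adjusted p = 0.0513). Chek1, a checkpoint kinase of replication stress, read 3.82, 4.55 and 4.26 against 5.23, 5.34 and 4.84, a difference of -0.93 that did not pass (limma adjusted p = 0.0908). At an unadjusted p under 0.05 limma gave 5 of the 18. Such counts, here and in the lists below, stand beside 16.9% of all probe sets. That share was not computed with 1 probe set per gene.

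Of 11 measured relatives of the members, among them Trp63, Trp73 and the paralogs of p21 and of the sestrins, 0 passed in limma (median -0.03), and 0 had an unadjusted p under 0.05. Trp63, the p53 relative of epithelia, was dim in both groups. Isg20, an exonuclease related to Aen, read 7.36, 6.93 and 6.05 in KO and 5.86, 6.46 and 4.97 in wildtype, with overlapping groups (limma adjusted p = 0.332). Trp53inp2, the paralog of Trp53inp1, read 4.09, 4.30 and 3.60 against 4.20, 4.79 and 6.45, where wildtype replicate 3 set the difference of -1.15 apart (adjusted p = 0.364).

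Of 8 other p53 targets of cell death 0 passed in limma (median 0.01). An unadjusted p under 0.05 was found in 3 of them, beside 16.9% of all probe sets. Apaf1, the adaptor of the apoptosome, read 4.37, 5.17 and 4.64 in KO and 6.61, 5.69 and 6.96 in wildtype. Every KO sample was lower, and the log2 difference of -1.69 did not pass (limma adjusted p = 0.0656). Fas, the death receptor, read 4.32, 4.50 and 4.63 against 4.89, 4.79 and 4.98, a smaller difference of -0.40 (limma adjusted p = 0.172).

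Of 23 other p53 targets of arrest, repair and metabolism, 5 had an unadjusted p under 0.05 in limma, beside 16.9% of all probe sets. At the adjusted threshold 1 fell and 0 rose (median 0.06), beside 3.92% of all represented genes that passed. The gene that fell was Btg2, an antiproliferative protein that acts with the mRNA deadenylation complex, which is also an immediate-early gene. It read 5.64, 5.52 and 4.60 in KO and 7.20, 7.30 and 7.11 in wildtype. The wildtype samples were nearly equal and the fall was 3.86-fold (log2 difference -1.95, SE 0.28, limma adjusted p = 0.0231). The adjusted p was 0.0973 without KO replicate 2, 0.0685 without wildtype replicate 1 and 0.0604 without wildtype replicate 3. Gadd45a, a stress sensor of growth arrest, had the opposite sign and read 7.34, 7.00 and 7.22 against 4.93, 5.66 and 6.41 (log2 difference 1.52, adjusted p = 0.0842).

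Of the 19 cell cycle genes repressed through p21 and DREAM, 0 passed in limma and 2 had an unadjusted p under 0.05. By their means 3 were higher and 16 lower in KO, and the median log2 difference was -0.28. This direction rested on KO replicate 3, since without it 13 were higher and 6 lower with a median of 0.37. Without wildtype replicate 2, 8 were higher and 11 lower with a median of -0.12, and without KO replicate 1 or 2 the median was -0.57 or -0.54. Top2a, a topoisomerase of dividing cells, read 8.88, 9.15 and 7.58 in KO and 9.56, 9.94 and 9.43 in wildtype (limma adjusted p = 0.231). Foxm1, a transcription factor of mitotic genes, read 6.43, 6.27 and 5.76 against 6.49, 6.78 and 6.63, and KO replicate 3 was the lowest sample in both (adjusted p = 0.294).

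Of 7 desmosome partners of Perp, 1 rose and 1 fell, while 3 were dim in both groups. An unadjusted p under 0.05 in limma was found in 4 of them, beside 16.9% of all probe sets. Dsp, desmoplakin, read 8.11, 8.85 and 9.88 in KO and 3.58, 3.74 and 3.04 in wildtype, where it was dim, and rose by 5.49 on the log2 scale (limma adjusted p = 0.00662). Jup, plakoglobin, read 4.90, 4.60 and 4.63 against 5.53, 6.37 and 6.09 and fell by 1.29 (adjusted p = 0.0401). These genes moved in opposite directions beside a Perp probe set that read near the lower end of the scale in all samples. When KO replicate 2 was left out Dsp no longer passed (adjusted p = 0.0601), and Jup no longer passed when any KO sample or wildtype replicate 3 was left out (adjusted p between 0.0877 and 0.154), after repeated quantile normalization (0.0753), with array weights (0.0708) or with the replicate number as a block (0.0957).

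**Figure D4:**
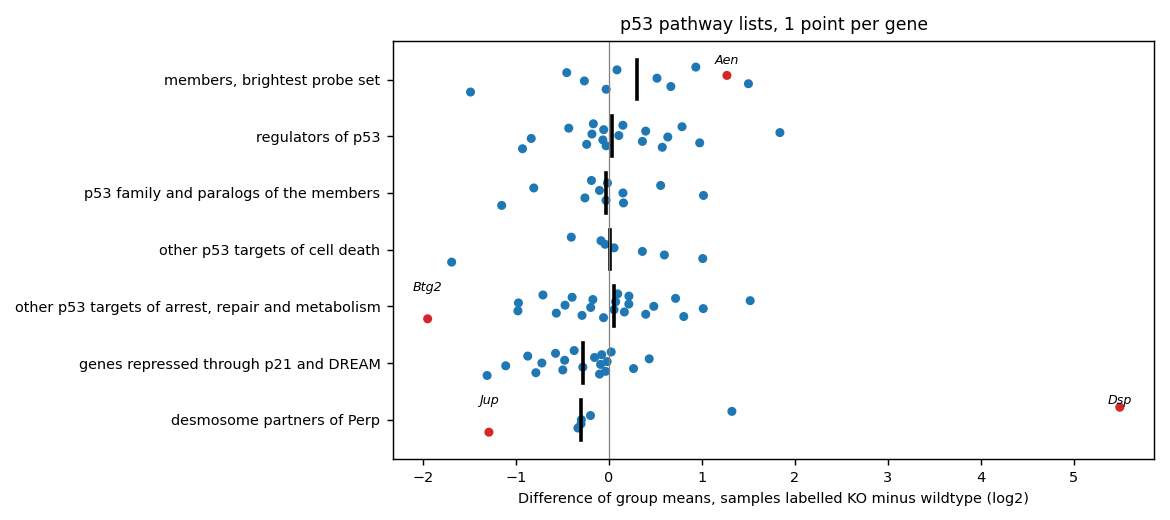
Log2 difference of group means, samples labelled KO minus wildtype (horizontal axis), with 1 point per gene for the 10 members at their brightest probe set and for the genes of the 6 pathway lists, black bars for medians and named red points for genes past the adjusted p of 0.05. The list medians lie between -0.30 and 0.06, and Aen, Btg2, Jup and Dsp are the named genes.

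The genes whose values followed Trp53, Mdm2 and Cdkn1a most closely over the 6 samples were sought among genes with a range of at least 1 on the log2 scale, at their highest-mean probe sets. For Trp53 probe set 1427739_a_at, these were Mindy4 and Dhrs4, with Pearson correlations of 0.992 and 0.990 over 6 samples. For Mdm2 they were Csgalnact2 and Tmem205 with 0.984 and 0.975, and for Cdkn1a they were Lrba and Evi5 with 0.993 and 0.975. These are the highest values out of about 6009 candidates each, they share the same arrays and group difference, and they are given as a description.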

How the data were processed

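RNA of 6 bone marrow samples was hybridised to Affymetrix MG-430_2.0 arrays, per the labels' protocols. Per the submitters' processing notes the deposited log2 values were made with RMA, a method of background correction, quantile normalization and probe set summary. Its version and a genome build are not given in the sources used here. A deposited annotated table adds gene symbols, the authors' log2 differences, a signed fold stored as a score, and p-values. The group means of the 2 deposited tables differed by at most 0.

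The 64 array controls were left out, and KO was compared with wildtype over 45037 probe sets in R 4.3.3 with limma 3.58.1 (lmFit, eBayes, two-sided, Benjamini-Hochberg over all probe sets, threshold 0.05), without a filter on dim probe sets. The largest difference from the authors' unadjusted p-values was 4.95e-08 when controls were kept. Standard deviations and n are over samples. In the pathway lists a gene is its brightest probe set, only probe sets naming 1 gene count, and updated symbols come from RefSeq (GRCm38.p6). Ppm1d, Cop1, Sesn1, Tigar, Elane and Cd79a were not analysed here. Besides every member and Gfi1b, genes of the pathway lists were named where they passed (up to 4 per direction and list) or, where none passed, as the 2 with the smallest p. Gadd45a and Trp63 were named outside this rule. The members and lists were chosen with earlier results of these data known. On simulated data with 100 probe sets each changed by 1 or 2, limma recovered 36% and 81%, and 3.31% of 121 calls were false. The simulated noise was normal and independent between probe sets, and in the data 1319 probe sets passed, so these rates need not hold there. The number of arrays limits the precision. Figures were drawn with matplotlib 3.10.9. The alternatives were a replicate block, leaving out each sample, other normalization, moderation, weights, filters, gene summaries and thresholds.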

Additional observations from a re-analysis of the deposited data

How the results depend on the processing

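Both the 2 member calls and the 1319 calls over all probe sets moved when samples were left out. Over the 6 samples left out in turn, the count of all calls ranged from 49 (without KO replicate 2) to 2187 (without wildtype replicate 2), and that of members from 0 to 1. The log2 difference of Gfi1b ranged from 5.29 to 6.29, and its adjusted p was 0.065 without KO replicate 2. Member calls numbered 1 with array weights, 1 with 1 probe set per gene, and 0 with probe sets averaged per gene or at an adjusted p under 0.01. All calls numbered 823 with gene means, 2645 at 0.1 and 129 at 0.01. At 0.1 Trp53inp1 probe set 1416926_at passed as a further member. Quantile normalization, trend, robust moderation, both filters, kept controls and the authors' deposited statistics left the overall count within 1.5 times.

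With the replicate number as a block 833 probe sets passed, and the member count stayed at 2. The deviations of same-numbered samples had correlations of -0.143, -0.0313 and -0.0195, and those of differently numbered samples lay between -0.0825 and 0.133. With 3 samples per group these values cannot tell whether the numbers pair the samples. Jup was lost under the block (adjusted p = 0.0957), after repeated quantile normalization (0.0753) and with array weights (0.0708).

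Leaving out each sample for the signs and medians of the lists was added after seeing the data. The members' median lay between 0.12 and 0.23, and that of the cell cycle list between -0.57 and 0.37. The medians near 0 changed sign for the relatives of the members (-0.17 to 0.07), for the other targets of cell death (-0.04 to 0.28) and for those of arrest, repair and metabolism (-0.10 to 0.02).

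No called value changed sign. Differences near 0 did so without a call. With a sample left out, Mdm2 1423605_a_at ranged from -0.077 to 0.21, 1427718_a_at from -0.11 to 0.54 and 1457929_at from -0.18 to 0.022, Ccng1 1450016_at from -0.10 to 1.21, Sesn2 1425139_at from -0.25 to 0.047, Trp53 1459780_at from -0.011 to 0.14 and Perp from -0.15 to 0.10. Mdm2 1423605_a_at was -0.0053 after quantile normalization and Perp 0.0072 with array weights. The causes of these changes were not tested.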
